A study of Homo sapiens with 29 samples.

Results

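Subtelomeric Kcr regions are the stretches of chromosomes 1 to 22 with anti-crotonyllysine ChIP-seq signal that lie within 2 Mb of a chromosome end. A region was counted as subtelomeric when its start lay under position 2000000, or when its end lay within 2000000 bp of the last region end on the same chromosome. Of the 49292 regions of these chromosomes in the deposited table, 4049 (8.21%) met this rule, and the other 45243 served as comparison. They come from HCT116, a human colorectal carcinoma cell line. The 12 anti-Kcr libraries covered cells with DAXX siRNA and 10 mM crotonate (2 libraries), non-targeting siRNA and 10 mM crotonate (2), DAXX siRNA without crotonate (4) and non-targeting siRNA without crotonate (4), and the single input library is labelled as cells with DAXX siRNA. The 16 RNA-seq libraries had 4 in each of the same groups. DAXX siRNA was used at 35 nM and the non-targeting siRNA at 25 nM, so siRNA dose differed between the arms too. The crotonate time is given as 18 h for the series and as 48 h for the samples.

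Lysine crotonylation (Kcr) is an acylation of histones and other proteins that uses crotonyl-CoA, and added crotonate raises the supply of that donor. On histones it is known as a mark of active promoters and enhancers, and a pan antibody such as the one used here binds the modification on any protein. DAXX is a chaperone that, with the chromatin remodeller ATRX, deposits the histone variant H3.3 at telomeres, at pericentromeric repeats and at other silenced repeats. The subtelomere is the gene-rich stretch inside the TTAGGG repeats of the chromosome tip, and it holds segments copied between chromosomes.

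The sequences at the starts of 4 subtelomeric genes are shown because the results below turn on them. GAS6 is the one subtelomeric gene with higher mRNA after DAXX siRNA in both media. PGAM5, UPF3A and FUOM start inside regions called lower in Kcr after crotonate with non-targeting siRNA, on the deposited scale. The call of each of these regions was lost under 12 of 22 alternatives. Each sequence is the stretch of 250 bases before the transcription start, 5′ to 3′ on the gene's strand, from RefSeq (GRCh38.p14). In the first 3 sequences capitals mark CG dinucleotides. In FUOM capitals mark CCCTAA, the reverse complement of the telomere repeat unit TTAGGG.
GAS6 (chr13:113864077-113864326, minus strand): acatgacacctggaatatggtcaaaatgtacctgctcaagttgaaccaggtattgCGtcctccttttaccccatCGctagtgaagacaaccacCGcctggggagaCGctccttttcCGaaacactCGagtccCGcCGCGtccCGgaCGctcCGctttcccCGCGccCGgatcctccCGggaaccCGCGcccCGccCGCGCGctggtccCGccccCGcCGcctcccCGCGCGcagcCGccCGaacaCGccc
PGAM5 (chr12:132710592-132710841, plus strand): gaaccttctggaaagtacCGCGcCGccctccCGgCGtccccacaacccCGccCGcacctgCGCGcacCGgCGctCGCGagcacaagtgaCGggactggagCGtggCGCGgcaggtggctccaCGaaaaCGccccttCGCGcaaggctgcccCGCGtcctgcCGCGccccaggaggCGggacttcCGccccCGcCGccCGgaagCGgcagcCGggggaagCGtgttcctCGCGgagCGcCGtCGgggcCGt
UPF3A (chr13:114281351-114281600, plus strand): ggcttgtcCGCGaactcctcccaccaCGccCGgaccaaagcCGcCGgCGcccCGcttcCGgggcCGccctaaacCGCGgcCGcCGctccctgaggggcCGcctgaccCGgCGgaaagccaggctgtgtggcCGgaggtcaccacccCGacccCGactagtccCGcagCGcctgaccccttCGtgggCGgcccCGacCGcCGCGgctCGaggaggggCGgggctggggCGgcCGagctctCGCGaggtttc
FUOM (chr10:133358020-133358269, minus strand): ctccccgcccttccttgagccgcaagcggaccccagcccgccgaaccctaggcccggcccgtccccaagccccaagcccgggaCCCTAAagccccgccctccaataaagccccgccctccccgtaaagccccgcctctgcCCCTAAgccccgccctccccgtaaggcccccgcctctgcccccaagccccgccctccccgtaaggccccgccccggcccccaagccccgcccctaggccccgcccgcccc
The 4 stretches hold 31 (GAS6), 39 (PGAM5), 34 (UPF3A) and 22 (FUOM) CG dinucleotides, at a GC content of 66.8%, 75.6%, 76.8% and 77.2%. UPF3A has further RefSeq starts in the same region, not shown, whose stretches hold 30 and 15 CG dinucleotides at 72.8% and 48% GC. FUOM has 2 single copies of TTAGGG or CCCTAA, UPF3A has 1, and PGAM5 and GAS6 have 0. Over RefSeq promoters of 300 bases (250 before the start and 50 after), the 2100 subtelomeric ones had a median GC content of 66.3% and 22 CG dinucleotides, against 58.0% and 13 in the 31625 others. TTAGGG or CCCTAA occurred in 6.43% of the subtelomeric promoters, in 9.29% of the others and in 9.11% of all. No subtelomeric promoter held 2 copies in a row, against 2 of the others. In these cells 60.2% of the subtelomeric promoters had their start inside a Kcr region, against 42.0% of the others.

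Values of single regions are normalised reads, which is the antilog of the deposited log2 value, and values of mRNA are RPM, reads scaled to the library's total. The anti-Kcr libraries held 2226835 to 3639130 recovered reads in regions and the input 1719036, a median of 31 to 48 reads per subtelomeric region in an anti-Kcr library. The labels do not say that replicates were separate cultures, so p-values measure the spread between these libraries, which may be technical.

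Subtelomeric regions were dense. The 38 chromosome ends with at least 1 such region held 53.3 regions per Mb, against 16.2 per Mb on the rest of the chromosomes. The 6 ends without any were 3p and the short arms of chromosomes 13, 14, 15, 21 and 22. Subtelomeric regions were also wider, with a median of 2250 bp against 1800 bp, and their median was the higher of the pair on 19 of 22 chromosomes. They made up 10.8% of all bases in regions and 14.7% of the regions of 10 kb or more. Regions can share a boundary with the next one (14.4% of subtelomeric regions and 11.7% of the others did so), so a count of regions is not a count of separate domains.

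Gene starts were a larger part of the subtelomeric set. A start lay within 2 kb of 1252 regions (30.9%), against 26.9% of the other regions, although the share was the higher one on only 14 of 22 chromosomes. A further 48.0% lay in genes away from a start, against 53.3%, and 21.1% lay between genes, against 19.9%. At starts the width differed most: the subtelomeric median was 4200 bp against 3000 bp, and 21.9% reached 10 kb against 9.92%. Among subtelomeric genes with expressed mRNA, 82.3% of 1355 had a region at the start, against 67.8% of 16097 expressed genes elsewhere. Among genes below the expression limit the shares were 43.9% and 21.5%.

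Width was smaller toward the chromosome end, and density is given for short and long arms apart. Density was taken over the ends with at least 1 region in that stretch. Ends without a region there are left out, which raises the value. Over both arms, within 100 kb of the end, there were 64.5 regions per Mb over 29 of the 38 ends. The median width there was 1500 bp (n = 187). The figures were 59.0 per Mb and 1800 bp from 100 to 500 kb (n = 849), 59.9 per Mb and 2250 bp from 500 kb to 1 Mb (n = 1108), and 52.9 per Mb and 2700 bp from 1 to 2 Mb (n = 1905). The neighbouring stretch from 2 to 5 Mb had 33.6 per Mb and 2400 bp (n = 3934). These densities rest on 36, 37, 36 and 39 ends, so the pooled densities within 2 Mb are not ranked by distance. On short arms, where the distance is from the chromosome start, density was 47.1 regions per Mb within 100 kb (7 ends) and 48.2 to 500 kb (15 ends). It was 62.4 to 1 Mb (16 ends) and 63.6 from 1 to 2 Mb (14 ends), so it was lowest at the end. On long arms it was 70.0, 66.7, 58.0 and 46.1 in the same stretches. Distance there starts at the last region itself, so the first stretch of every long arm holds at least 1 region. This raises its density, and short and long arms cannot be compared at the end. Median width from the end inward was 1200, 1650, 1950 and 2700 bp on short arms and 1725, 1950, 2700 and 2550 bp on long arms. Width alone did not set subtelomeric regions apart from their neighbours, of which 8.57% reached 10 kb, against 8.87% of the subtelomeric regions. On long arms the distance is counted from the last region and not from the telomere. The short arm ends with the outermost regions were 9p (chr9:14251-14850, in WASHC1, which encodes a subunit of an actin-nucleating complex on endosomes), 5p (chr5:20401-20850), 2p (chr2:32551-34350), 7p (chr7:44851-45300) and 16p (chr16:67051-67350, in RHBDF1, an inactive rhomboid protein). WASHC1 has near-identical copies at other chromosome ends, so reads there cannot be assigned to 1 copy.

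**Figure D1:**
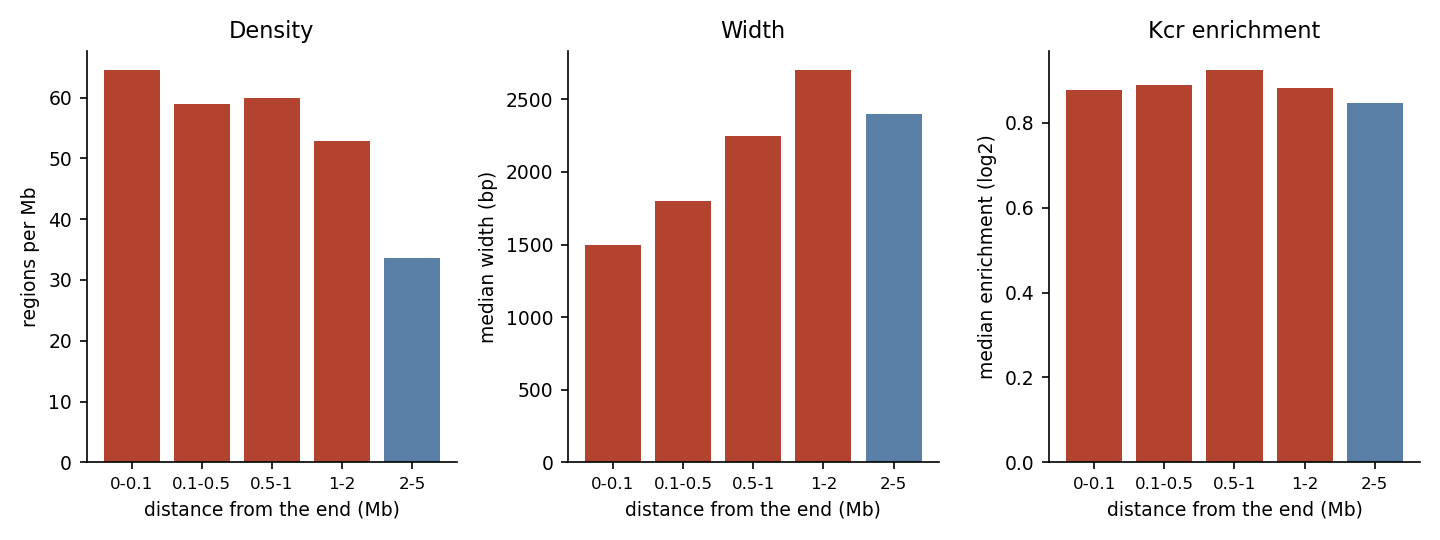
Density (regions per Mb), median width (bp) and median Kcr enrichment (log2, ChIP over input) of regions by distance from the chromosome end in Mb; red bars are subtelomeric, the blue bar is the neighbouring stretch from 2 to 5 Mb. Short and long arms are pooled: within 100 kb the pooled density of 64.5 regions per Mb is made of 47.1 on short and 70.0 on long arms. Long arm distance starts at the last region, so that stretch always holds at least 1 region there. Density leaves out ends without a region in the stretch, so it rests on 29 ends within 100 kb and on 36 from 1 to 2 Mb. Pooled width is 1500 bp within 100 kb and 2700 bp from 1 to 2 Mb, and enrichment lies between 0.85 and 0.92.

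Kcr enrichment, taken as log2 normalised ChIP reads minus log2 normalised input reads and averaged over the 4 groups, did not set subtelomeric regions apart. Its median was 0.89 in subtelomeric regions and 0.88 elsewhere, and it was the higher one on 11 of 22 chromosomes. By distance it was 0.88, 0.89, 0.92 and 0.88 in the 4 subtelomeric stretches and 0.85 from 2 to 5 Mb. Among subtelomeric regions above the median signal, the strongest enrichment was at the start of TFDP1, the dimer partner of E2F factors of the cell cycle (chr13:113584501-113586000, 2.82). The input held 6.35 normalised reads there, so the ratio carries a large counting error. It was followed by the start of the RNA gene AL451069.1 (chr10:132516001-132518550, 2.12), the start of PWWP2B, which reads methylated histone H3 (chr10:132395251-132398400, 2.04), and sites in CAPN15, a calpain-family protease (chr16:533701-536400, 2.02), and ERICH1 (chr8:630751-632400, 1.99). The weakest were in the RNA gene NRSN2-AS1 (chr20:331951-335100, 0.11), in TBCD, a tubulin-folding cofactor (chr17:82821001-82823850, 0.12), and in ZC3H18, a nuclear RNA-processing factor (chr16:88585051-88588950, 0.16). Input differed between these ends. TBCD and ZC3H18 lie at 17q and 16q, with a median of 15.5 and 14.5 input reads per kb. AL451069.1 and PWWP2B lie at 10q, with 6.67, and the remaining sites lie at other ends.

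The chromosome ends differed among themselves more than subtelomeres differed from the rest. The input library gave a median of 15.4 reads per kb in the 78 regions of 8q, 14.5 in the 113 of 16q and 15.5 in the 85 of 17q, and 6.67 in the 108 of 10q. The 31 other ends with at least 20 regions lay between 6.80 and 10.6. These 4 ends were picked out after their input values were seen. Median enrichment was 0.66 at 8q, 0.72 at 16q, 0.66 at 17q and 1.53 at 10q, against 0.80 to 1.31 at the 31 others. Median width was 10200 bp at 8q, 5850 bp at 16q and 9600 bp at 17q, and 600 bp at 10q. The ends 8q, 16q and 17q held 6.82% of the subtelomeric regions but 21.6% of their bases and 120 of the 359 regions of 10 kb or more. The regions with the most reads all lay at 8q and 17q: chr17:81659101-81742350 (83250 bp, over the starts of HGS, a sorting protein of endosomes, and MRPL12, a mitochondrial ribosomal protein), chr8:143493001-143569200 (76200 bp, from ZC3H3 to GSDMD, the pore protein of pyroptosis), chr17:81292051-81352950 (60900 bp, at SLC38A10), chr17:81819301-81878550 (59250 bp, at P4HB, a protein disulfide isomerase) and chr8:143928601-143981400 (52800 bp, at PLEC, a cytoskeletal linker).

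The higher input reached past the 2 Mb window but not over the whole chromosome. From 2 to 5 Mb it was 14.8 reads per kb at 8q, 14.2 at 16q and 14.7 at 17q, against 10.7 on the rest of chromosome 8, 10.0 on that of 16 and 10.95 on that of 17. At 10q, where 108 regions lay within 2 Mb, the stretch from 2 to 5 Mb held 3. Across 35 ends, input reads per kb and enrichment had a Pearson correlation of -0.80 and a Spearman correlation of -0.70. This is a description over ends that share every library, and the input is part of both measures. Without the 4 ends the values were -0.80 and -0.57. HCT116 is known to carry rearranged chromosomes with extra copies of parts of 8q, 16q and 17q and a rearranged chromosome 10, and the part of DNA copy number in these levels was not tested. Without chromosomes 8, 10, 16 and 17, 6.58% of subtelomeric regions reached 10 kb against 3.35% elsewhere, and the median widths were 2250 and 1800 bp.

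**Figure D2:**
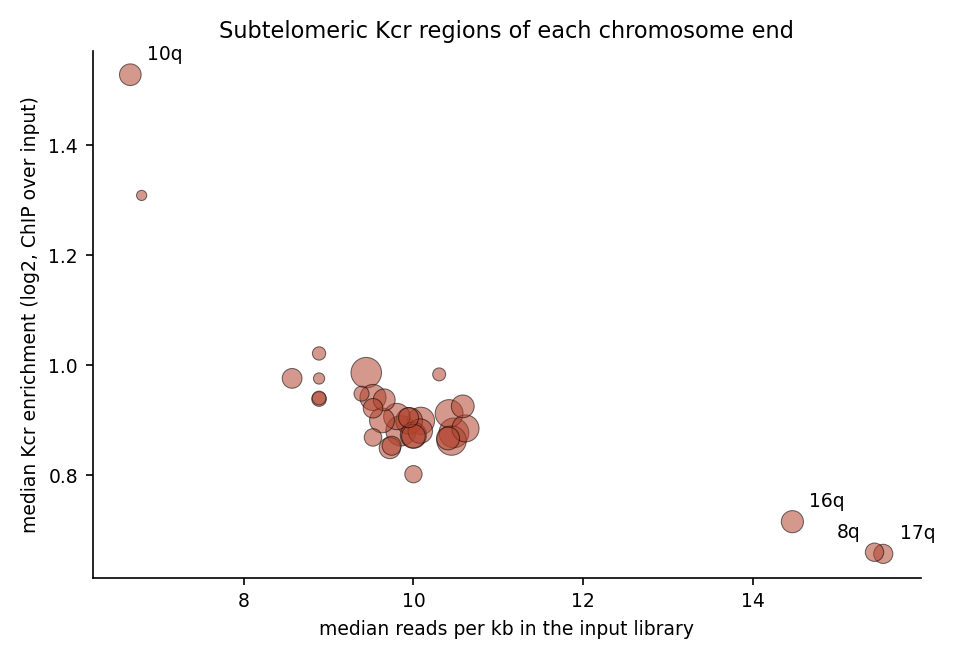
Each point is a chromosome end with at least 20 subtelomeric regions (point area follows the number of regions); the x axis gives the median reads per kb in the input library and the y axis the median log2 Kcr enrichment. The ends 8q, 16q and 17q lie at 14.5 to 15.5 reads per kb with enrichment of 0.66 to 0.72, and 10q lies at 6.67 reads per kb with 1.53.

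The share of anti-Kcr reads in subtelomeric regions was nearly the same in every library. A chi-square test of reads over subtelomeric regions found no difference between libraries 1A and 1B of DAXX siRNA (1.03 per degree of freedom, p = 0.120) or of non-targeting siRNA (1.00, p = 0.504), while the 12 other pairs within groups gave 1.06 to 1.35. A chi-square test over all regions gave 1.01 per degree of freedom for both pairs (p = 0.0251 for DAXX siRNA and p = 0.132 for non-targeting siRNA). They are counted as 1 sample in every mean and SD. In the limma fits they entered as separate samples, so the Kcr log2 changes, SEs and p-values below count both. The share of region reads was 11.6% ± 0.068 (SD, n = 2) with DAXX siRNA and crotonate, 11.7% ± 0.030 (n = 2) with non-targeting siRNA and crotonate, 11.7% ± 0.16 (n = 3) with DAXX siRNA alone and 11.8% ± 0.026 (n = 3) with non-targeting siRNA alone. The input share was 11.4% (95% exact binomial interval 11.3 to 11.4%, counting error only). Single libraries ran from 11.5 to 11.9%, so all 12 lay above the input.

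Enrichment varied more between libraries than between subtelomeric and other regions of the same library. Median subtelomeric enrichment was 0.91 and 0.76 in the libraries with DAXX siRNA and crotonate, 0.88 and 0.74 with non-targeting siRNA and crotonate, 1.06, 1.09, 1.04 and 0.88 with DAXX siRNA alone, and 1.13, 1.13, 0.95 and 0.91 with non-targeting siRNA alone. The medians of the other regions in the same libraries were 0.92 and 0.75, 0.85 and 0.72, 1.03, 1.04, 1.05 and 0.90, and 1.11, 1.12, 0.95 and 0.89. The ranges of the DAXX siRNA groups overlap (0.76 to 0.91 in crotonate, 0.88 to 1.09 without), and those of the non-targeting groups do not (0.74 to 0.88 in crotonate, 0.91 to 1.13 without). The subtelomeric median minus that of the rest lay between -0.018 and 0.046 and was above 0 in 9 of 12 libraries.

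**Figure D3:**
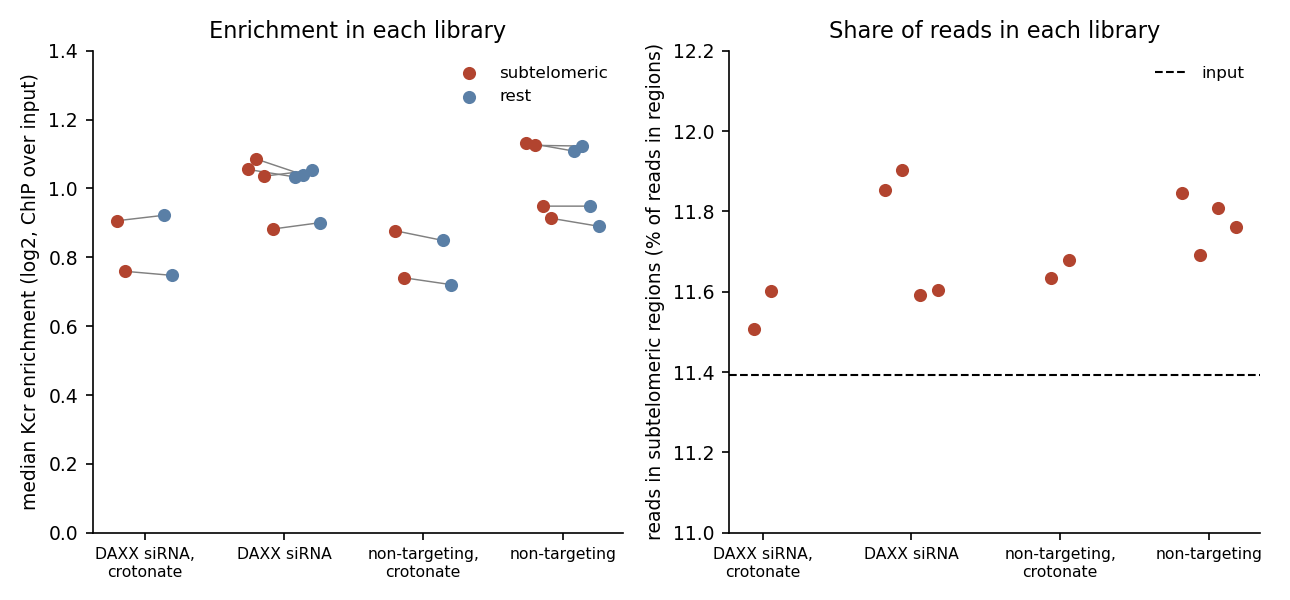
Left, median log2 Kcr enrichment of subtelomeric regions (red) and of all other regions (blue) in each of the 12 anti-Kcr libraries, joined by a line per library. Right, reads in subtelomeric regions as a percentage of reads in all regions of chromosomes 1 to 22, with the input library as a dashed line at 11.4% and an axis that starts at 11%. Red and blue points lie within 0.046 of each other in every library.

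DAXX siRNA was compared with non-targeting siRNA to ask whether Kcr at chromosome ends depends on DAXX. DAXX mRNA (ENSG00000204209) averaged 19.3 ± 4.67 RPM with DAXX siRNA against 100.2 ± 3.38 RPM with non-targeting siRNA in crotonate, and 24.6 ± 2.06 against 103 ± 1.60 RPM without it (SD, n = 4 each). No subtelomeric region passed an adjusted p of 0.05 in either direction in limma, with crotonate or without (0 of 4049 in each, against a background of 0% of 49916 regions), and limma-voom on recovered reads also called 0. At an unadjusted p under 0.05 there were 89 subtelomeric regions without crotonate (2.198%, against 3.01% of all) and 118 with crotonate (2.91%, against 3.82%). The median log2 change was -0.02 in subtelomeric regions and -0.01 elsewhere without crotonate, and 0.03 and 0.05 with it. Leaving out 1 library moved the subtelomeric medians between -0.06 and 0.03 without crotonate and between -0.04 and 0.12 with it, so their sign is not settled. The interaction, the DAXX siRNA effect in crotonate minus that without, also gave 0 calls against 0% of all regions. Its unadjusted p was under 0.05 in 131 subtelomeric regions (3.24%, against 3.40% of all).

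The subtelomeric regions nearest to a call are named for what they are, with none of them called. Without crotonate the smallest p belonged to the region at the start of the antisense gene MELTF-AS1 on 3q (chr3:196998901-197000550). It had 22, 20.9, 29.5 and 19.8 normalised reads with DAXX siRNA, against 47.8, 37.5, 36.8 and 37.2 with non-targeting siRNA. Its log2 change was -0.80 (SE 0.22, adjusted p = 1.00). The groups did not overlap, as in 3.06% of subtelomeric and 3.67% of all regions, and the region was picked by its p, so this order adds nothing. The region in ATP11A, a phospholipid flippase (chr13:112744051-112745400), had 32.0, 28.3, 25.3 and 26.4 normalised reads with DAXX siRNA, against 13.4, 19.9, 17.7 and 15.9 with non-targeting siRNA (0.75, adjusted p = 1.00). In crotonate the log2 changes were 0.10 for MELTF-AS1 and 0.06 for ATP11A. In crotonate the region in LAMP1, a membrane protein of lysosomes (chr13:113311351-113313600), had 52.8 and 53.4 normalised reads with DAXX siRNA, against 31.0 and 27.2 with non-targeting siRNA (0.87, SE 0.26, adjusted p = 0.999). An intergenic region of 7p (chr7:1245151-1246950) had 16.9 and 26.1 against 44.4 and 42.0 (-1.04, adjusted p = 0.999).

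Crotonate was compared with its absence within each siRNA. As deposited, the median log2 change was -0.22 in subtelomeric regions and -0.23 elsewhere with non-targeting siRNA, and -0.18 and -0.16 with DAXX siRNA. This shift was shared by the table: over all regions the medians were -0.23 and -0.17. Centring each library and quantile scaling set such a shared shift to about 0 by construction, so its direction cannot be read from these tables, and these settings serve only to compare subtelomeric with other regions. With each library centred on its median region, the medians were -0.02 in subtelomeric regions and -0.03 elsewhere with non-targeting siRNA, and -0.04 and -0.02 with DAXX siRNA. Quantile scaling gave 0.02 and 0.01, and -0.002 and 0.005. limma-voom with its own scaling gave 0.01 and 0.01, and -0.01 and 0.01. Within the deposited scale, regions at gene starts had the larger change in subtelomeres (-0.31) and elsewhere (-0.33), and regions between genes the smaller (-0.16 and -0.15), with non-targeting siRNA.

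With non-targeting siRNA, 6 subtelomeric regions were lower in crotonate and 0 were higher (0.148% of 4049, against a background of 0.194% lower and 0% higher of 49916 regions). With DAXX siRNA 2 were lower and 0 higher, against a background of 0.00601% lower and 0% higher (3 regions in all). None of the 8 was called in both siRNA arms, and the interaction term called none, so no difference between the arms is shown. When 1A and 1B were averaged, or when libraries were centred, 0 of the 8 were called. Leaving out 1 library moved the 6 calls between 0 (without either 1A, either 1B or non-targeting library 2) and 203 (without non-targeting library 3), and the 2 calls between 0 (without the DAXX siRNA libraries 1A, 1B or 2, or its crotonate library 3) and 91 (without its crotonate library 2). The 6 also moved to 3, 39, 42, 86 and 88 without the non-targeting crotonate library 3, DAXX siRNA library 3, the non-targeting crotonate library 2 and the DAXX siRNA crotonate libraries 3 and 2, in that order. The whole table moved too: beside the 203 there were 1880 lower regions of all 49916, and beside the 91 there were 1041. With a term for replicate number in the fit, 166 subtelomeric regions were lower and 1 higher with non-targeting siRNA, beside 1396 and 12 of all 49916. The number called thus depends on the libraries and on the model.

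The region over the start of FUOM, a fucose mutarotase (ENSG00000148803, chr10:133357051-133358250), lies 96.0 kb from the last region of 10q. It had 14.8 and 9.07 normalised reads in crotonate, against 26.9, 36.3, 35.4 and 27.9 without it (non-targeting siRNA). Both crotonate libraries lay below all others (log2 change -1.44, SE 0.30, adjusted p = 0.0379). With DAXX siRNA it had 20.2 and 16.9 in crotonate, against 33.0, 24.6, 28.1 and 18.4 without, and the groups overlapped.

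PGAM5 encodes a phosphatase of the mitochondrial membrane (ENSG00000247077). The region over its start on 12q (chr12:132709501-132711750) had 40.4 and 30.6 normalised reads in crotonate, against 59.7, 56.3, 80.4 and 83.7 without it, with no overlap (-0.97, SE 0.21, adjusted p = 0.0421). The same direction was seen with DAXX siRNA at 46.1 and 39.1, against 72.0, 67.6, 61.8 and 59.3, which was not called (-0.62, adjusted p = 0.343).

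UPF3A encodes a factor of nonsense-mediated mRNA decay (ENSG00000169062), and its region on 13q (chr13:114279751-114282900) is 32.6 kb from the last one. It had 56.5 and 48.8 normalised reads in crotonate, against 86.6, 122, 102 and 78.4 without it (-0.87, SE 0.20, adjusted p = 0.0442). The wide region over the start of BAHCC1, a BAH-domain chromatin protein (chr17:81395551-81425250, 29700 bp), had 993 and 926, against 1510, 1516, 1282 and 1245 (-0.53, adjusted p = 0.0498). It lies at 17q, one of the ends with high input. A region inside DIDO1, a reader of methylated histone H3, over the start of the RNA gene AL117379.1 (chr20:62924401-62929500) had 88.8 and 72.6, against 119, 156, 140 and 130 (-0.76, adjusted p = 0.0424). The region in the RNA gene AC138512.1 (chr16:88238401-88239000) had 4.04 and 3.40 normalised reads, against 19.4, 11.7, 12.3 and 13.3 (-1.90, adjusted p = 0.0421), which is a few reads a library. In each of these 4 regions, as at FUOM and PGAM5, both crotonate libraries lay below all 4 without it. The same held in 28.9% of subtelomeric and 26.6% of all regions, so this order adds nothing to the calls.

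The calls with DAXX siRNA lay at PHF10 and ABR. PHF10 encodes a subunit of a BAF-type chromatin remodeller (ENSG00000130024). A region within 2 kb of its start (chr6:169723051-169723950) had 7.86 and 6.52 normalised reads in crotonate, against 27.0, 33.2, 29.5 and 19.8 without it (-1.91, SE 0.32, adjusted p = 0.0238). With non-targeting siRNA it had 14.8 and 12.5, against 17.9, 27.0, 27.2 and 31.9 (-0.91, adjusted p = 0.127). The abutting region (chr6:169723951-169726050) had 25.8 and 28.7, against 52.0, 54.1, 64.6 and 43.5, and was not called (-0.96, adjusted p = 0.192). The region in ABR (chr17:1207951-1208850) had 4.49 and 5.21, against 24.0, 23.4, 16.9 and 19.8 (-2.10, SE 0.39, adjusted p = 0.0475). In both regions the crotonate libraries lay below all others of that siRNA, as they did in 22.4% of subtelomeric and 20.3% of all regions.

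**Figure D4:**
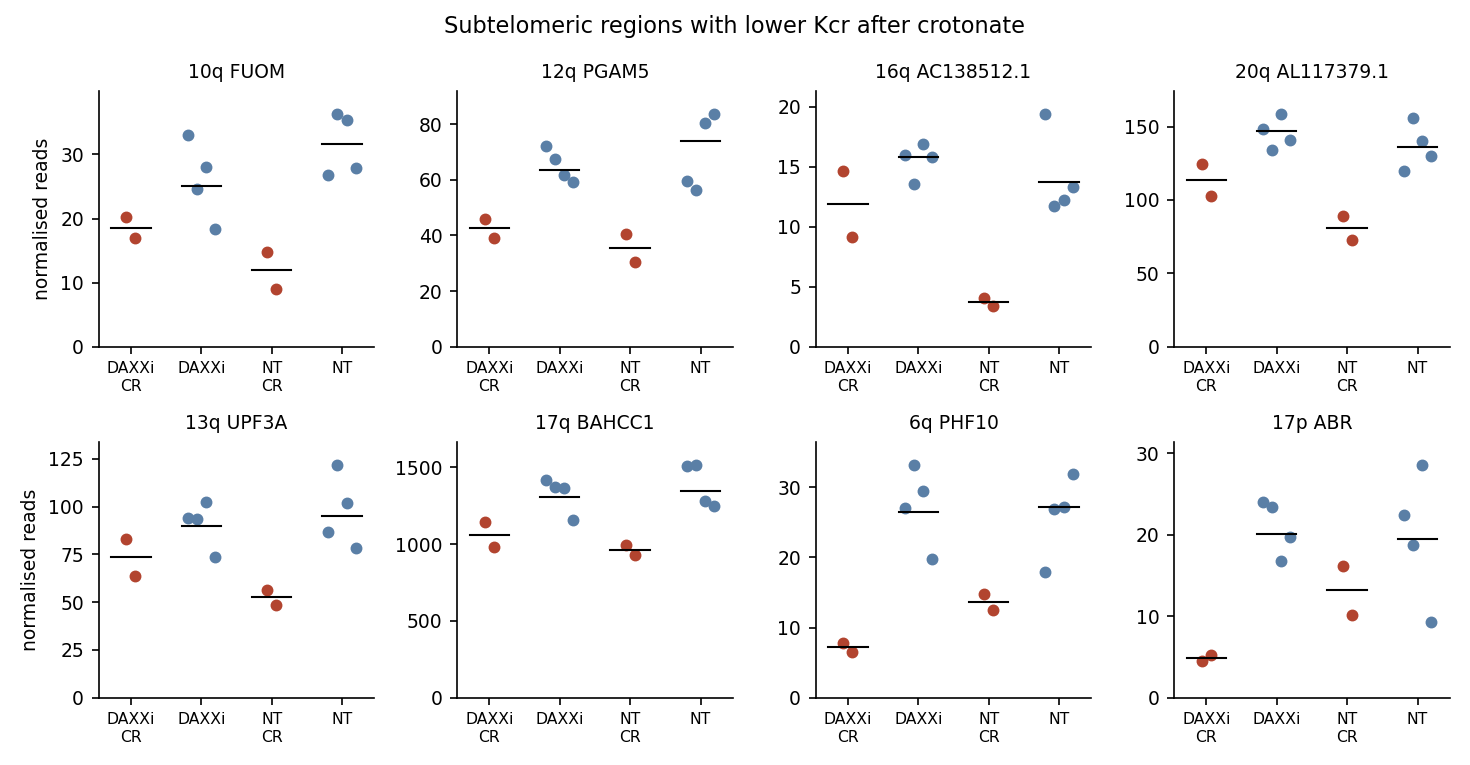
Normalised anti-Kcr reads in each library for the 8 subtelomeric regions called lower after crotonate, named by chromosome arm and gene; DAXXi is DAXX siRNA, NT non-targeting siRNA, CR crotonate, red points are crotonate libraries and black lines group means with 1A and 1B counted as 1. The first 6 panels were called with non-targeting siRNA and the last 2 (PHF10 on 6q, ABR on 17p) with DAXX siRNA, and in the called arm of each panel both crotonate points lie below all points without crotonate, as in 26.6% (non-targeting siRNA) and 20.3% (DAXX siRNA) of all regions.

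The mRNA of the genes at these regions was not called with crotonate. Of all genes, 13.1% were higher and 2.34% lower with non-targeting siRNA, and 13% and 2.41% with DAXX siRNA. Over so few genes, the lack of calls says little about a link to Kcr. FUOM averaged 9.06 ± 0.943 RPM in crotonate and 9.05 ± 1.77 RPM without it, PGAM5 averaged 175 ± 11.9 and 199 ± 10.8, and UPF3A averaged 21.9 ± 2.36 and 25.5 ± 2.45 (SD, n = 4 each, non-targeting siRNA, adjusted p = 0.969, 0.179 and 0.152 in limma). PHF10 averaged 44.3 ± 1.96 in crotonate and 48.5 ± 3.03 without it with DAXX siRNA (adjusted p = 0.465). BAHCC1, DIDO1 and ABR were not called either, and AC138512.1 was below the expression limit. Across 1113 expressed genes with a subtelomeric region at the start, the log2 changes of Kcr and of mRNA had Pearson correlations of 0.14 with non-targeting siRNA and 0.18 with DAXX siRNA for crotonate, and of 0.03 and 0.04 for DAXX siRNA without and with crotonate. These are descriptions across genes that share libraries, not tests.

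Gene groups at chromosome ends were followed through lists chosen for their place there. Of 18 genes of chromatin and telomere biology, 15 had a region at the start, with PCGF3, RNF168 and SMARCA2 without one, and the median crotonate change of the 18 regions was -0.42 with non-targeting siRNA and -0.39 with DAXX siRNA. The corresponding medians were -0.43 and -0.32 for metabolism (8 of 12 genes, 8 regions), -0.37 and -0.32 for replication and repair (13 of 14 genes, 15 regions), -0.39 and -0.30 for signalling (17 of 18 genes, 21 regions), and -0.41 and -0.31 for a mixed list of mostly housekeeping genes (22 of 23 genes, 26 regions). Over all subtelomeric regions at starts the median was -0.31 with non-targeting siRNA and -0.25 with DAXX siRNA. PHF10 held the only call among these regions. DAXX siRNA without crotonate gave list medians between -0.02 and 0.03 and no call.

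Single members of these lists show the spread. TERT, the catalytic subunit of telomerase, lies on 5p. Its region, 1292 kb from the end (chr5:1291951-1296300) had 89.9 and 76.9 normalised reads with DAXX siRNA in crotonate, 94.2 and 77.1 with non-targeting siRNA in crotonate, 89.0, 92.2, 118 and 89.6 with DAXX siRNA alone, and 104, 118, 114 and 120 with non-targeting siRNA alone. The groups with and without crotonate did not overlap with non-targeting siRNA, as in 28.9% of subtelomeric regions, and the change was not called (-0.42, adjusted p = 0.189). ECHS1 encodes the enoyl-CoA hydratase that consumes crotonyl-CoA. Its small region on 10q (chr10:133373251-133373850) had 9.42 and 3.40 normalised reads in crotonate, against 28.4, 19.9, 13.6 and 9.30 without it, with overlap and no call (-1.53, SE 0.50, adjusted p = 0.0999). ECHS1 mRNA averaged 64.5 ± 3.81 RPM in crotonate and 63.7 ± 5.18 RPM without it (adjusted p = 0.912).

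The 16 RNA libraries held 35003617 to 55128007 recovered reads each. RNA was read over genes that start in the same windows: 2458 genes, of which 1355 passed the limit of 0.25 RPM in at least 4 libraries. In bulk RNA a lower level in every cell and fewer cells that express a gene cannot be told apart. The cells had the epithelial markers EPCAM (220.5 to 313 RPM), KRT8, KRT18, CDH1 and VIL1, while the colon markers CDX1 (0 RPM) and LGALS4 (at most 0.20 RPM) were absent or nearly so. Of the markers of other cells, PTPRC, CD3E, COL1A2, ALB and PECAM1 stayed at or under 0.50 RPM, and COL1A1 lay between 11.1 and 26.9 RPM. The part of other cells in the results was not tested.

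DAXX siRNA changed few subtelomeric mRNAs. Without crotonate 1 was higher (background 0.1% of 17973 genes) and 3 were lower (background 0.306%) of 1355. With crotonate 5 were higher (background 0.389%) and 6 lower (background 0.668%). These counts move with single libraries, from 2 (without DAXX siRNA replicate 3 or non-targeting replicate 1) to 5 without crotonate, and from 3 (without the non-targeting crotonate replicate 2) to 17 (without non-targeting replicate 2 alone) with crotonate.

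GAS6 encodes a secreted ligand for receptor kinases of the TAM family and was the gene with higher mRNA in both media (ENSG00000183087, chr13:113820549-113864076). It had 132, 147, 134 and 180.5 RPM with DAXX siRNA in crotonate, against 77.9, 86.1, 76.5 and 81.5 RPM with non-targeting siRNA. Without crotonate it had 119, 124, 120.5 and 148 RPM with DAXX siRNA, against 73.7, 97.2, 71.0 and 69.5 RPM. The log2 changes were 0.87 (SE 0.11, adjusted p = 0.000159) and 0.72 (SE 0.11, adjusted p = 0.0023). The groups did not overlap in either medium, which adds nothing in a gene singled out by its call. GAS6-AS1, an RNA gene on the opposite strand that overlaps GAS6, averaged 26.6 ± 2.61 RPM against 16.98 ± 1.91 RPM in crotonate (0.65, adjusted p = 0.00961), and without strand information its reads and those of GAS6 cannot be told apart. Kcr at the GAS6 start was not called. The region chr13:113859601-113864400, which covers the printed sequence, had 94.4 and 79.5 normalised reads with DAXX siRNA in crotonate, against 83.5 and 87.3 with non-targeting siRNA, and 103, 92.2, 108 and 105 with DAXX siRNA alone, against 106, 114, 89.9 and 87.7. Its log2 changes were 0.02 and 0.05.

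GLOD4, DBNDD1 and LRCH3 were lower in both media. GLOD4, a glyoxalase-domain protein (17p), had 63.4, 74.1, 72.7 and 70.8 RPM with DAXX siRNA in crotonate, against 104, 99.5, 97.7 and 99.0 RPM, and 81.4, 83.0, 82.5 and 85.7 RPM without crotonate, against 107, 108, 114 and 110.3 RPM. The log2 changes were -0.51 (adjusted p = 0.000115) and -0.40 (adjusted p = 0.00312). The groups of GLOD4 did not overlap, which again adds nothing to its calls. DBNDD1, a dysbindin-domain protein (16q), averaged 49.5 ± 8.16 against 73.2 ± 5.08 RPM in crotonate and 43.3 ± 4.77 against 65.4 ± 9.01 RPM without (-0.57 and -0.59, adjusted p = 0.0142 and 0.0192). LRCH3, a leucine-rich repeat protein (3q), averaged 24.4 ± 2.89 against 32.6 ± 0.333 RPM and 21.6 ± 2.09 against 29.9 ± 2.32 RPM (-0.43 and -0.47, adjusted p = 0.0251 and 0.0236). In crotonate MAML1, a coactivator of Notch signalling (5q), was also lower (43.9 ± 5.94 against 57.1 ± 2.61 RPM, -0.39, adjusted p = 0.0322), as were JMJD8 and CDCA4, while ZNF512B, ALDH1A3, a retinal dehydrogenase, and the antisense gene AC015712.2, which overlaps it, were higher. Calls for DBNDD1, LRCH3 and MAML1 were each lost under some alternatives, and those of GAS6 and GLOD4 under none of 22.

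Crotonate changed more subtelomeric mRNAs than DAXX siRNA did, and the share called higher lay below that of the whole table, a difference that was not tested. With non-targeting siRNA 81 of 1355 were higher (5.98%, background 13.1%) and 39 lower (2.88%, background 2.34%). With DAXX siRNA 104 were higher (7.68%, background 13%) and 23 lower (1.70%, background 2.41%). The split depends on the scaling. Centring each library moved the subtelomeric counts to 50 higher and 176 lower with non-targeting siRNA, and to 59 and 75 with DAXX siRNA, while all genes went to 1458 and 1701, and to 1515 and 1488. The interaction called 0 subtelomeric genes (background 0% in each direction, and 0 in limma-voom). Its unadjusted p in limma was under 0.05 in 23 subtelomeric genes (1.70%, against 2.41% of all).

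The subtelomeric median under crotonate lay 0.10 below that of the other genes with non-targeting siRNA (-0.02 against 0.08) and 0.02 below with DAXX siRNA (0.04 against 0.06). The first gap, -0.10, lay between -0.11 and -0.08 under the other scalings, models and filters. In non-targeting replicate 2 subtelomeric genes stood 0.29 above the other genes, relative to their means over all libraries. The 3 other non-targeting replicates had 0.05, -0.03 and -0.04. Without that library the gap was -0.03 in place of -0.10. By group the value was -0.02 ± 0.11 with DAXX siRNA and crotonate, -0.03 ± 0.05 with non-targeting siRNA and crotonate, -0.005 ± 0.088 with DAXX siRNA alone and 0.07 ± 0.15 with non-targeting siRNA alone (SD, n = 4 each), so the groups overlapped.

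**Figure D5:**
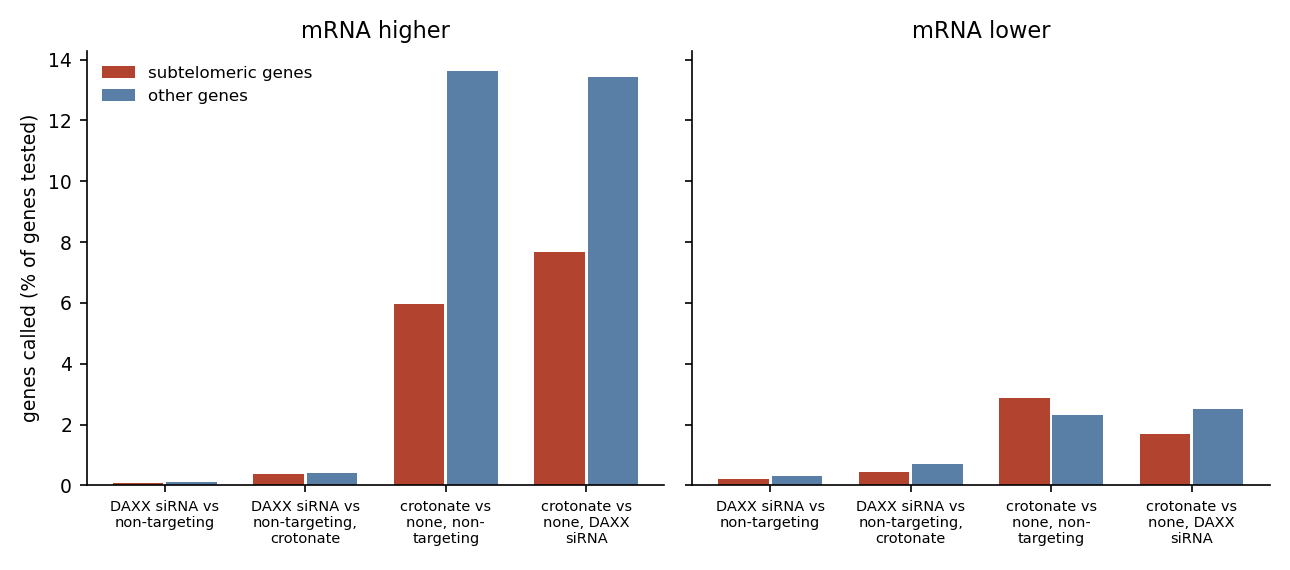
Share of tested genes with mRNA called higher (left) or lower (right) in 4 comparisons, in percent, for 1355 subtelomeric genes (red) and 16097 other genes of chromosomes 1 to 22 (blue). For crotonate the red bars for higher mRNA stand at 5.98% and 7.68%, against 13.6% and 13.4% for the other genes.

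Among called subtelomeric genes whose higher group mean reached the median of tested genes, the largest crotonate changes were in TNFRSF6B, a decoy receptor of the TNF family (20q), C2CD4C (19p) and RFLNB, a refilin that binds filamins (17p). TNFRSF6B shares its locus with transcripts that read through from RTEL1, so reads may be split between them. It had 140.5, 164, 125 and 141 RPM in crotonate with non-targeting siRNA, against 68.0, 97.4, 73.1 and 58.2 RPM without it. With DAXX siRNA it had 136, 157, 144 and 204 RPM, against 66.5, 86.0, 67.8 and 94.7 RPM. The log2 changes were 0.96 (adjusted p = 0.000153) and 1.03 (adjusted p = 8.45e-05). Neither pair of groups overlapped, which adds nothing in a gene singled out by its call. RFLNB averaged 83.8 ± 4.58 RPM in crotonate and 45.9 ± 4.52 RPM without it (0.87, adjusted p = 6.17e-07), and C2CD4C averaged 19.9 ± 2.34 and 10.3 ± 1.504 RPM (0.96, adjusted p = 7.16e-05), both with non-targeting siRNA. ENTPD2, an ectonucleotidase, PXDN, a peroxidase of the extracellular matrix, and EPPK1, a keratin-binding plakin, were higher in both siRNA arms, by 0.74 to 0.89 log2 units. None of these 6 genes had a called Kcr region at its start, and PXDN had no region there at all. Of all regions only 0.194% were called for crotonate with non-targeting siRNA and 0.00601% with DAXX siRNA, so this says little. Lower with non-targeting siRNA were LRRK1, a kinase of endosome traffic (21.6 ± 1.29 against 30.5 ± 2.79 RPM, -0.50, adjusted p = 0.00116), SLC9A3, a sodium-proton exchanger (14.4 ± 1.93 against 19.4 ± 1.54 RPM, -0.44, adjusted p = 0.00711), and FAM57A (36.0 ± 2.26 against 47.7 ± 4.05 RPM, -0.40, adjusted p = 0.00251). The antisense gene VPS9D1-AS1 was lower as well.

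The listed genes are given beside whole-table shares of 13.1% higher and 2.34% lower with non-targeting siRNA, and 13% and 2.41% with DAXX siRNA. Of 18 chromatin genes, 0 were higher and 1 lower with non-targeting siRNA (ING5, a subunit of acetyltransferase complexes, -0.34), and 1 was higher (SMARCA2, a remodelling ATPase, 0.53) and 2 lower (ING5 and SLBP, the histone mRNA binding protein, -0.30 and -0.24) with DAXX siRNA. Signalling had 2 of 17 higher in each arm, FGFR3, a growth factor receptor (0.43 and 0.48), and DUSP22, a phosphatase (0.46 and 0.45). FOXC1, a transcription factor on 6p, had 86.7, 96.4, 77.6 and 105 RPM in crotonate, against 58.5, 55.3, 67.1 and 63.5 RPM (0.58, adjusted p = 0.00339), while its Kcr region (chr6:1608151-1612650) was lower in value without a call (-0.50, adjusted p = 0.135). Of 11 metabolism genes, BDH1, a ketone body dehydrogenase, was lower with non-targeting siRNA (16.6 ± 1.80 against 20.52 ± 2.71 RPM, -0.30, adjusted p = 0.0372). Of the 23 genes of the mixed list, FOXC1 and DMRT1 were higher in both arms and PRPF8, a core spliceosome protein, was lower with non-targeting siRNA (-0.25, adjusted p = 0.0258). DMRT1 stayed under 2 RPM on average. Replication and repair had 0 of 14 in every comparison. TERT mRNA averaged 6.16 ± 1.29 RPM in crotonate and 7.22 ± 1.37 RPM without it (adjusted p = 0.498).

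The machinery of H3.3 deposition and of telomeres was read from lists over the whole genome. For DAXX siRNA the whole-table shares were 0.1% higher and 0.306% lower without crotonate, and 0.389% and 0.668% with it. For crotonate they were 13.1% and 2.34% with non-targeting siRNA, and 13% and 2.41% with DAXX siRNA. Of 20 tested partners and targets of DAXX, DAXX was the one call with DAXX siRNA, and ATRX averaged 77.8 ± 3.23 RPM with DAXX siRNA and 74.8 ± 18.0 RPM with non-targeting siRNA (adjusted p = 0.828). With crotonate and non-targeting siRNA CBX5, the heterochromatin protein HP1 alpha, was lower at 143 ± 8.84 against 192 ± 29.1 RPM (-0.41, adjusted p = 0.00452), and SUV39H1, a methyltransferase of H3 lysine 9, was lower too (-0.30, adjusted p = 0.0209). With DAXX siRNA CBX5 (-0.43) and the remaining DAXX transcript (-0.38, adjusted p = 0.0452, lost under 15 of 22 alternatives) were lower. Of 19 tested telomere genes, none was called with DAXX siRNA. With crotonate STN1, a subunit of the CST complex, was higher in both arms (50.9 ± 0.463 against 38.0 ± 0.682 RPM with non-targeting siRNA, 0.42, adjusted p = 0.000186), DKC1, the dyskerin of telomerase, was lower in both (-0.28 and -0.23), and SLX4, a nuclease scaffold, was higher with DAXX siRNA (0.38, adjusted p = 0.0192).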

How the data were processed

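Anti-Kcr ChIP-seq and RNA-seq of HCT116 cells were analysed from 2 tables of log2 values that the authors deposited, 1 row per region or gene. Per the submitters' processing notes, the tools were Trim Galore 0.6.5, cutadapt 2.3, Bowtie2 and MACS for ChIP, Trim Galore 0.6.2, cutadapt 2.3 and HISAT2 2.2.1 for RNA, with build GRCh38. The sources used here do not state how regions were combined, which strand was counted or how the ChIP table was scaled. Values stepped by whole reads (tolerance 0.01 reads), with 0 reads entered as 0.9 before the log2 of the deposited values. Read totals were recovered from these steps.

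Regions were grouped by distance from the chromosome end, and a start counted within 2 kb. limma 3.58.1 with a trend (R 4.3.3) was fitted to all regions or to the 17973 of 38148 genes with at least 0.25 RPM in 4 or more libraries. Groups were fitted together, without a replicate term, with Benjamini-Hochberg adjustment over the whole table and a threshold of 0.05. Libraries 1A and 1B entered the fit separately and the means as 1 sample. The script was tested on simulated data. Other work used Python 3.11.15, pandas 2.3.3, numpy 2.4.6 and scipy 1.17.1. Intervals cover counting error only.

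Named regions were all the called ones. A comparison without calls gave the 3 smallest p-values per direction. To these were added the highest and lowest enrichments among regions above the median signal, the outermost regions, those with the most reads and those at listed genes. Named genes were DAXX, listed genes in the windows and at most 5 called subtelomeric genes per direction, by size, whose higher group mean reached the median tested gene. GAS6-AS1 and the genes of the DAXX and telomere lists were added. The members and lists were chosen with earlier results of these data known. Alternatives covered scaling, filters, window size, models, the replicate block and leaving out each library. Using libraries 2 and 3 alone, combining the 1A and 1B average with centring or with the block, quantile scaling and single-contrast fits of RNA, and leaving out the ends 8q, 10q, 16q and 17q were chosen after seeing the data.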

Additional observations from a re-analysis of the deposited data

Results flagged for a closer look

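For 20 named genes, each of 4 groups of 4 RNA libraries was searched for 1 library far from the others (80 groups). The gap was too wide for its group in 11, where chance gives about 1 in 20. All values are RPM. GAS6 had 148.2 RPM in DAXX siRNA replicate 4, with 119.3 to 124 in the 3 others, and 97.21 in non-targeting siRNA replicate 2, with 69.51 to 73.75 in the others. GAS6-AS1, which overlaps GAS6, had 30.46 in replicate 4 of DAXX siRNA with crotonate (others 24.99 to 25.65) and 22.56 in non-targeting siRNA replicate 2 (others 15.03 to 15.78). Non-targeting siRNA replicate 2 is also the library in which subtelomeric genes stood 0.29 log2 units above the other genes.

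In replicate 4 of DAXX siRNA with crotonate, FGFR3 had 47.18 (others 37.94 to 38.68) and C2CD4C had 24.89 (others 17.11 to 18.37). LRRK1 had 18.5 in replicate 3 of that group (others 23.11 to 23.52). In replicate 4 of non-targeting siRNA with crotonate, FGFR3 had 45.59 (others 42.74 to 43.22), ING5 had 35.5 (others 30.7 to 30.9) and DAXX had 95.21 (others 101.5 to 102.4). PXDN had 65.58 in replicate 2 of that group (others 61.16 to 61.78).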

How the results depend on the processing

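For the called regions and the 20 named genes, which were followed through the alternatives, no call reversed its direction. The other called genes were not followed singly. Of the alternatives to counts and medians, 205 stayed within 1.5 times the reported count or within its spread and 68 moved, and of those to single genes and regions 848 stayed and 162 lost their call. Replicate numbers were not taken as pairs, since same-numbered libraries did not all deviate together (r over 0.1 in 8 of 13 ChIP and 20 of 24 RNA pairs). In ChIP all 13 were above 0 (0.014 to 0.247), against -0.247 to 0.106 and 1 of 24 over 0.1 among libraries with different numbers. Libraries were centred within groups, so the 2 libraries of a crotonate group are mirror images. Pairs with these groups repeat a value with the opposite sign (as 0.247 and -0.247), so the 13 are not independent. This is at most a weak hint of pairing. In RNA 23 of 72 pairs with different numbers were over 0.1.

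The 6 Kcr calls for crotonate with non-targeting siRNA became 167 with a replicate block (1396 lower and 12 higher of all 49916 regions), 57 with a replicate block and 1A and 1B averaged (410 lower of all), 34 with the compared groups alone, 19 without the regions of lowest signal, 11 in a 5 Mb window, 3 in a 1 Mb window and 1 in limma-voom. They became 0 when centred, with quantile scaling, with 1A and 1B averaged, with both averaging and centring, and with libraries 2 and 3 alone. The 2 calls with DAXX siRNA became 1 in a 1 Mb window, without the regions of lowest signal, and with averaging and a replicate block, and 0 when centred, in limma-voom, averaged, averaged and centred, with libraries 2 and 3 alone and with the groups alone. Leaving out 1 library gave 0 to 203 and 0 to 91 calls, and 0 to 2 for DAXX siRNA in crotonate. The cause was not tested.

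For mRNA, the 4 calls for DAXX siRNA alone became 7 in a 5 Mb window, 7 with a replicate block and 2 with the groups alone (2 to 5 when leaving out 1 library). The 11 in crotonate became 22 in a 5 Mb window (3 to 17). The 120 for crotonate with non-targeting siRNA became 64 in a 1 Mb window, 255 in a 5 Mb window and 226 when centred (83 to 127). The 127 with DAXX siRNA became 72 and 277 in the 1 and 5 Mb windows (85 to 167). The replicate block changed no other count by over 1.5 times. The difference in enrichment, 0.0084, was -0.022 in a 5 Mb window. The read share, 11.7%, was 5.20% in a 1 Mb window, 22.4% in a 5 Mb window, 11.4% without the outermost 100 kb, 10.45% without the regions of highest input per kb and 8.76% without 8q, 10q, 16q and 17q. Narrower windows hold fewer regions and wider ones more. Negative binomial count models planned as alternatives were not run because the deposited values are logs, and limma-voom on recovered reads was run.

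Small regions hold few reads a library and the single input sets every enrichment. With 2 crotonate libraries per siRNA, changes in single regions are measured loosely.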
